A study of Mus musculus with 4 samples.

Results

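The genes described here are 9 receptors and effectors of Hedgehog signaling, namely *Ptch1*, *Gli1*, *Gli2*, *Gli3*, *Hhip*, *Gas1*, *Boc*, *Cdon* and *Smo*, out of 19938 genes named by a single symbol on the arrays. They were chosen by their role in the pathway, with earlier results of these data known. Each is read by 1 probe set with a single symbol, so that all 9 could be measured. Cochleas at embryonic day 15 (E15) of *Meis2* flox/flox; *Pax2* Cre/+ mutants were compared with those of wild-type embryos, with 2 arrays for each genotype. In the mutants both *Meis2* alleles are floxed and Cre is driven by regulatory sequences of *Pax2*, which are active in the otic placode and vesicle and hence reach the lineages derived from them. The labels give the same age and tissue, the whole cochlea, for all arrays, and do not say whether a sample came from 1 embryo or from a pool. The p-values therefore measure the spread between these arrays, which may be technical.

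Hedgehog proteins are secreted ligands that bind the receptor Ptch1 and thereby lift its inhibition of the transmembrane protein Smo. Active Smo acts in the primary cilium on the transcription factors Gli2 and Gli3, which are cut to repressors when the ligand is absent, and the target genes that follow include *Gli1*, *Ptch1* and *Hhip* themselves. In the mouse inner ear, Sonic hedgehog from the notochord and floor plate patterns the ventral otic vesicle, and in the growing cochlea it is made by the spiral ganglion next to the duct.

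Signals are given on the log2 scale of the robust microarray analysis (RMA) values, and differences are mutant minus wild type. Across all probe sets, median signals were 6.72 to 6.73 on the mutant arrays and 6.63 to 6.65 on the wild-type arrays, and Pearson's r across probe sets, which are not replicates, was 0.996 between the mutant arrays, 0.993 between the wild-type arrays and 0.966 to 0.971 between genotypes. *Meis2*, the targeted gene, was at 9.61 and 9.80 in mutants and at 9.64 and 9.38 in wild type, a difference of 0.19 (limma adjusted p = 0.284). The signal was thus not lower in mutants. Where the probe set lies relative to the deleted exons was not determined, so these values do not settle the genotype of the arrays either way. *Xist*, the transcript of the inactive X chromosome, was at 11.83 and 11.84 in mutants and at 5.54 and 11.51 in wild-type replicates 2 and 3. The Y-linked gene *Eif2s3y* was at 4.68 and 4.88 in mutants and at 8.76 and 7.77 in the same wild-type replicates. Wild-type replicate 2 therefore stood apart in *Xist*, replicate 3 carried both *Xist* and Y-linked signal, and neither mutant array carried Y-linked signal, so sex and genotype cannot be told apart. The 9 genes lie on chromosomes 1, 6, 8, 9, 10, 13 and 16. Of 8 markers of the non-sensory cochlear duct, 4 were higher and 1 was lower, against 21.6 and 15.7 percent of all probe sets. The higher markers included the transcription factors *Dlx5* and *Pax2*, with differences of 1.24 and 0.97. *Oc90*, an otolith protein made by otic epithelium, was bright on every array, at 12.73 and 12.73 in mutants and at 12.88 and 12.83 in wild type.

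Promoter sequences from RefSeq (GRCm38.p6), 250 bases before to 50 bases after the transcription start, were matched for 7 of the 9 genes by symbol. They were searched on both strands for the Gli site GGGTGGTC, for its shorter part GGGTGGT, which every GGGTGGTC also contains, for the Meis site TGACAG and for the Pbx-Hox site TGATNNAT. The promoters of *Gli2* and *Ptch1*, the genes with the largest differences among the 9, are shown to let the one promoter with matches be read beside one without. Capitals mark the matches, and the *Ptch1* window has none (chr1:119053570-119053869, minus strand for *Gli2* and chr13:63565686-63565985, minus strand for *Ptch1*).
Gli2: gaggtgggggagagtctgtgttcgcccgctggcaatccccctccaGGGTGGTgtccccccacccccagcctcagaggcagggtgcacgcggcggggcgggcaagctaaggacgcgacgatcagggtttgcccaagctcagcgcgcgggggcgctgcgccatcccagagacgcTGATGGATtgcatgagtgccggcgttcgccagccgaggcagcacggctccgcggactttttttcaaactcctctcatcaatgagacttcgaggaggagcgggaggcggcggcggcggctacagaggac
Ptch1: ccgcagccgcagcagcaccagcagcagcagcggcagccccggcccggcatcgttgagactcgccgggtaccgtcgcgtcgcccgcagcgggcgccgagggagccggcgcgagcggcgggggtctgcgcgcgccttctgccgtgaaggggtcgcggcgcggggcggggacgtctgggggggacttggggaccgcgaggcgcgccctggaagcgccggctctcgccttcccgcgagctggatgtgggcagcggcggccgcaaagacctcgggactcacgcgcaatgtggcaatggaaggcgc
In the *Gli2* window GGGTGGT lay at positions -205 to -199 and TGATGGAT, a form of the Pbx-Hox site, at -78 to -71 from the start. Of 32851 promoter windows of this length, 0.807 percent held GGGTGGTC, 4.61 percent GGGTGGT, 19.2 percent TGACAG and 8.85 percent TGATNNAT. The windows of *Gli3*, *Hhip*, *Gas1*, *Cdon* and *Smo* held none of the sites, which says only that these letters are not in these windows. The windows of *Ptch1*, *Hhip*, *Gli3*, *Smo*, *Gli2* and *Gas1* were rich in G and C, at 76.3, 73.7, 71.0, 67.7, 67.3 and 62.3 percent, while that of *Cdon* had 44.7 percent, against a median of 52.7 percent over all windows. The *Ptch1* window above held 47 CG pairs and the *Gli2* window 28, against 3 for *Cdon* and a median of 7 over all windows.

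Of the 9 genes, 6 were higher in mutant cochleas past an adjusted p of 0.05 from limma, none was lower and 3 missed the threshold. The 6 were the receptor gene *Ptch1*, the 3 *Gli* genes, the decoy receptor gene *Hhip* and the co-receptor gene *Boc*, and the 3 others were *Smo* and the co-receptor genes *Gas1* and *Cdon*. Over all 35556 probe sets 21.6 percent were higher and 15.7 percent were lower at the same threshold. Among single-symbol probe sets tested alone, 6615 of 21789 were higher and 4467 lower. With dim probe sets left out, 5271 of 17778 were higher and 5091 lower. The share higher was thus larger in both of these settings than over all probe sets. The median difference of the 9 genes was 0.68, against 0.11 over all probe sets (0.59 against 0.03 after median scaling, and 0.72 against 0.05 after repeated quantile normalization). The arrays of the genotypes did not overlap, with mutants higher, for 8 of the 9 genes, *Cdon* being the exception, but this was also the case for 49.7 percent of all probe sets. A difference of 2-fold or more past the threshold was found for 2 of the 9, *Ptch1* and *Gli2*, and for 1.72 percent of all probe sets. In whole cochleas a change in the number of cells of a type cannot be told apart from a change in RNA per cell.

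**Figure D1:**
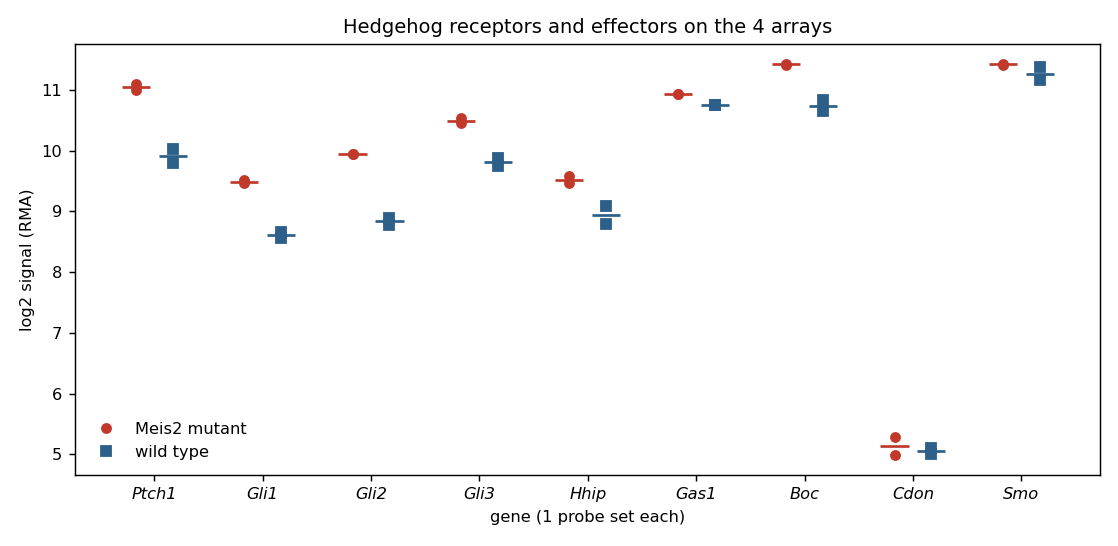
Log2 RMA signal (y axis) of each of the 9 genes (x axis) on the single arrays, with *Meis2* mutants as circles and wild type as squares, and horizontal lines for the mean of 2 arrays. For *Ptch1*, *Gli1*, *Gli2*, *Gli3*, *Hhip* and *Boc* both mutant arrays lie well above both wild-type arrays, those of *Gas1* and *Smo* lie close together and those of *Cdon* overlap.

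*Ptch1* encodes the receptor that binds Hedgehog ligands and, without ligand, holds Smo inactive. Its signals were 11.10 and 10.99 in mutant cochleas and 10.02 and 9.79 in wild-type cochleas. Both mutant arrays were above both wild-type arrays, with a gap of 0.96 between the lowest mutant and the highest wild-type value. The difference was 1.14 (SE 0.11, limma adjusted p = 0.00424, 95% confidence interval 0.85 to 1.43, SE the standard error), a ratio of 2.20. *Hhip* encodes a membrane protein that binds the ligands and keeps them from Ptch1. It was at 9.58 and 9.47 in mutants and at 8.78 and 9.08 in wild type. The wild-type arrays were spread more widely (SD 0.21, n = 2) than those of any other of the 9 genes, yet the groups did not overlap. *Hhip* was higher by 0.59 (SE 0.13, limma adjusted p = 0.0234, 95% interval 0.26 to 0.92). This call was lost without *Meis2* mutant replicate 1 (adjusted p = 0.107) and without *Meis2* mutant replicate 2 (adjusted p = 0.0828), and without wild-type replicate 2 the difference was 0.44 (adjusted p = 0.0456).

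The transcription factor *Gli2*, the main activator of the pathway, had almost equal signals on the mutant arrays, at 9.94 and 9.94, and was at 8.90 and 8.78 in wild type. The gap between the groups was 1.04, wider than that of *Ptch1* and the widest of the 9 genes. *Gli2* was higher by 1.10 (SE 0.09, limma adjusted p = 0.00305, 95% interval 0.88 to 1.32), a ratio of 2.14. *Gli1*, which acts as an activator only and whose transcription is widely used as a readout of the pathway, was at 9.51 and 9.47 in mutants and at 8.65 and 8.56 in wild type. Again both mutant arrays were higher, and the replicates of each genotype lay within 0.1 of each other. The difference of *Gli1* was 0.88 (SE 0.08, limma adjusted p = 0.00393, 95% interval 0.67 to 1.10), a ratio of 1.85. *Gli3*, whose protein serves mostly as a repressor when the ligand is absent, was at 10.45 and 10.53 in mutants and at 9.88 and 9.74 in wild type. The groups were apart by 0.57. *Gli3* was higher by 0.68 (SE 0.09, limma adjusted p = 0.00746, 95% interval 0.44 to 0.92), so its interval overlaps that of *Gli1* but only narrowly that of *Gli2*. The differences between these genes were not tested. The call of *Gli3* was lost without *Meis2* mutant replicate 2, by a small margin (adjusted p = 0.053).

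Boc, Cdon and Gas1 are cell surface proteins that bind Hedgehog ligands together with Ptch1 and promote signaling. *Boc* was at 11.41 and 11.43 in mutants and at 10.83 and 10.65 in wild type. Both mutant arrays were higher and nearly equal. Its difference was 0.68 (SE 0.10, limma adjusted p = 0.00819, 95% interval 0.43 to 0.92), a ratio of 1.60, and the call was lost without *Meis2* mutant replicate 2 (adjusted p = 0.0549). *Gas1* was at 10.92 and 10.92 in mutants and at 10.74 and 10.75 in wild type. The replicates of *Gas1* were the closest of the 9 genes in either genotype, so the groups did not overlap although the difference was small. That difference was 0.18 (95% interval -0.02 to 0.38, limma adjusted p = 0.126), and the interval leaves room for a ratio of up to 1.30. *Cdon* was at 4.99 and 5.28 in mutants and at 5.106 and 5.003 in wild type. These values overlap, and lay between percentiles 20.3 and 26.1 of all probe sets on their arrays. The difference of 0.08 (95% interval -0.24 to 0.41, limma adjusted p = 0.627) turned to -0.0029 after median scaling and to -0.04 after repeated quantile normalization. The *Cdon* probe set is annotated with 1 accession, a predicted transcript.

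*Smo*, the transducer that Ptch1 holds in check, was at 11.43 and 11.41 in mutants and at 11.37 and 11.16 in wild type. The lowest mutant array was only 0.04 above the highest wild-type array. The difference was 0.16 (95% interval -0.10 to 0.42, limma adjusted p = 0.267), an interval that reaches up to a ratio of 1.33 and includes no change. Thus the intervals of *Smo*, *Gas1* and *Cdon* end at 0.42 or below, and those of *Ptch1*, *Gli1*, *Gli2*, *Gli3* and *Boc* begin at 0.43 or above, while that of *Hhip* overlaps both.

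**Figure D2:**
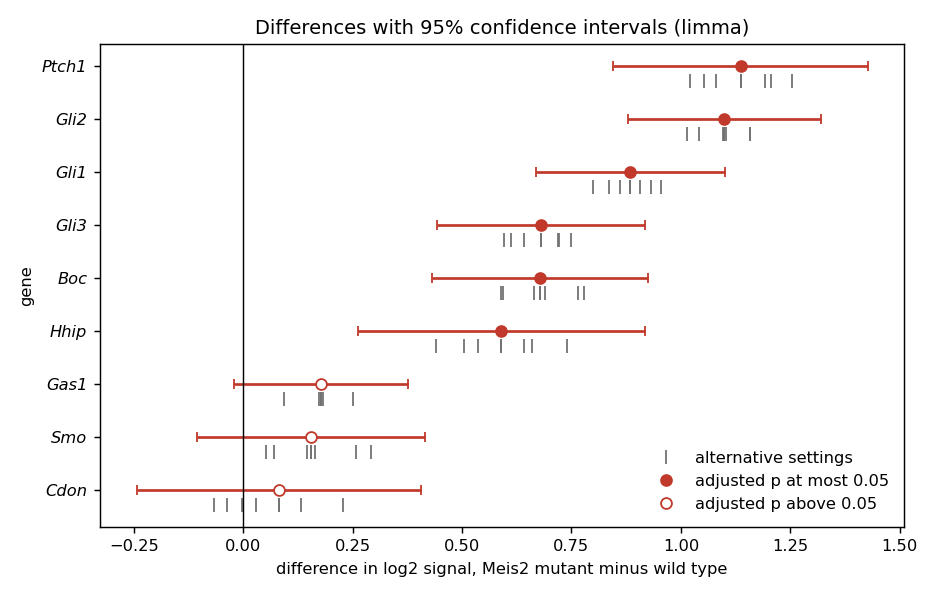
Difference in log2 signal, *Meis2* mutant minus wild type (x axis), for each gene (y axis), with 95% confidence intervals from limma on 2 arrays per genotype. Filled circles passed an adjusted p of 0.05 and gray ticks give the difference under the alternative settings and without single arrays, which stayed above 0.43 for the 6 filled genes and crossed 0 for *Cdon* only.

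Without *Meis2* mutant replicate 2, 3 of the 9 genes passed the threshold, namely *Ptch1*, *Gli1* and *Gli2*, and without *Meis2* mutant replicate 1 there were 5. Over all probe sets the number higher also fell without these arrays, to 1998 without replicate 2 and 2559 without replicate 1, against 7695 with all arrays. Without wild-type replicate 2, the array with low *Xist*, the differences of *Ptch1*, *Gli2*, *Gli1*, *Boc* and *Gli3* were 1.25, 1.16, 0.93, 0.77 and 0.75. Wild-type replicate 3, which was left, carried Y-linked signal, so this run does not separate sex from genotype. *Ptch1*, *Gli1* and *Gli2* passed in every run without 1 array, with adjusted p values of up to 0.0301, 0.0314 and 0.0277.

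**Figure D3:**
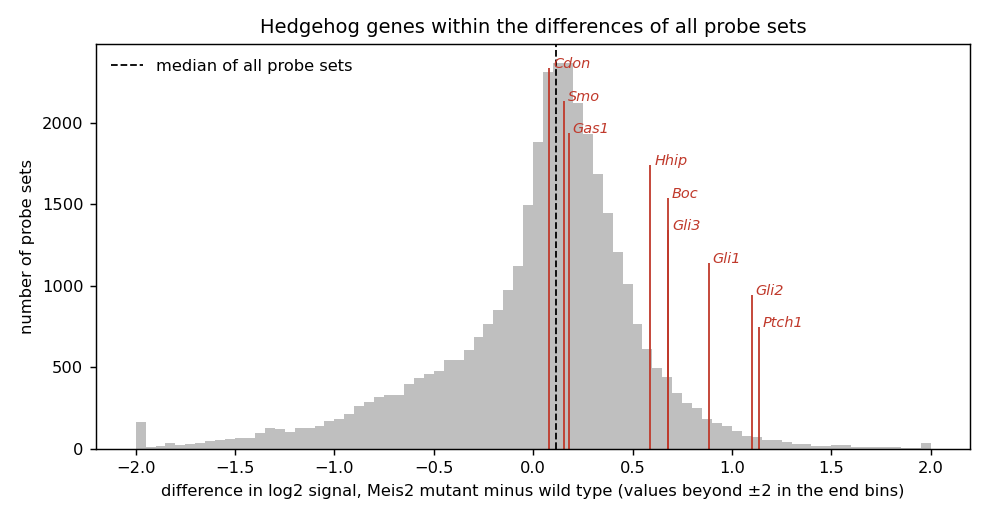
Number of probe sets (y axis) by difference in log2 signal, *Meis2* mutant minus wild type (x axis), for all 35556 probe sets in gray, with red lines at the 9 genes and a dashed line at the median of 0.11. *Cdon*, *Smo* and *Gas1* lie beside the median, whereas *Hhip*, *Boc* and *Gli3* lie on the right shoulder and *Gli1*, *Gli2* and *Ptch1* in the right tail. The height of a red line only separates the names.

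To see which genes had profiles most like those of *Ptch1* and *Gli1*, each gene was centered on its mean over the 4 arrays and the root mean square distance was taken over all 4. Among 19929 other genes, those nearest to *Ptch1* were *Xylt1*, a xylosyltransferase that starts proteoglycan chains, at a distance of 0.023, *Gpaa1*, a subunit of the enzyme that attaches GPI anchors, at 0.031, and *Abtb2* at 0.038. They were higher in mutants by 1.16, 1.18 and 1.06. Nearest to *Gli1* were the transcription factor *Runx3* at 0.014, the growth factor *Pdgfb* at 0.016 and *Tmem201* at 0.017, with differences of 0.89, 0.85 and 0.91. Within the 9 genes, *Gli2* was the nearest to both, at 0.061 from *Ptch1* and 0.109 from *Gli1*. *Boc* and *Gli3* were about as near to *Gli1*, at 0.110 and 0.112. With 4 arrays, this distance mostly ranks genes by the size of the difference between genotypes.

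Among 8 genes of Hedgehog ligands and their release, 5 were higher in mutants, none was lower and 3 missed the threshold. The median difference of the list was 0.43. At the same threshold 21.6 percent of all probe sets were higher and 15.7 percent lower. With single-symbol probe sets tested alone, 6 of the 8 were higher, beside 6615 of 21789. The 3 genes that missed the threshold over all probe sets were the ligands themselves. *Shh* was at 7.17 and 7.08 in mutants and at 7.37 and 7.30 in wild type, so the mutant arrays were the lower ones, with a difference of -0.21 (95% interval -0.43 to 0.01, limma adjusted p = 0.106). *Ihh*, the ligand made by maturing cartilage, was at 7.54 and 7.74 in mutants and at 7.26 and 7.35 in wild type. Its difference of 0.34 (limma adjusted p = 0.0576) missed the threshold, and passed it when only probe sets with 1 symbol were tested (adjusted p = 0.029) or dim ones were left out (adjusted p = 0.0396). *Dhh* differed by 0.04 (limma adjusted p = 0.77). The 5 that passed act on the ligands. *Disp1*, which releases them from the cell that makes them, was higher by 0.91 at its brighter probe set (limma adjusted p = 0.00496), although a dimmer probe set of the gene differed by only 0.07. The secreted proteins *Scube3*, *Scube2* and *Scube1*, of which Scube2 is known to help release the ligand, were higher by 0.85, 0.48 and 0.39. The call of *Scube1* was lost after median scaling (difference 0.30, limma adjusted p = 0.0823), and its difference was 0.31 without wild-type replicate 3. *Hhat*, the enzyme that adds palmitate to the ligands, was higher by 0.54. Without a mutant array, 2 of the 5 passed, whichever array was left out.

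Of 4 other measured receptors that bind Hedgehog proteins, 1 was higher and 1 was lower. The shares of all probe sets were 21.6 percent higher and 15.7 percent lower. *Lrp2*, an endocytic receptor of epithelia, was at 8.19 and 8.32 in mutants and at 8.78 and 9.02 in wild type and fell by 0.65 (limma adjusted p = 0.0143). This call was lost without *Meis2* mutant replicate 1 (adjusted p = 0.0758) and without *Meis2* mutant replicate 2 (adjusted p = 0.0586). The glypican *Gpc4* was higher by 0.42 (limma adjusted p = 0.0466), a call that was lost after median scaling (adjusted p = 0.0848), without wild-type replicate 2 (adjusted p = 0.111) and without either mutant array (adjusted p of up to 0.187).

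Of 21 measured genes of the cytoplasmic and ciliary machinery, 5 were higher, 7 were lower and 9 did not pass, with a median difference of -0.10. Over all probe sets 21.6 percent were higher and 15.7 percent lower, so the share higher is near that background. Without *Meis2* mutant replicate 1 there were 2 higher and 5 lower, and without *Meis2* mutant replicate 2 there were 2 higher and 4 lower. The counts were 3 higher and 7 lower without wild-type replicate 2, and 4 higher and 4 lower without wild-type replicate 3. *Stk36*, a kinase related to the fly gene fused, was at 8.62 and 8.64 in mutants and at 7.46 and 7.57 in wild type, and was higher by 1.11 (SE 0.08, limma adjusted p = 0.00295). *Gpr161*, a ciliary receptor that restrains the pathway, was higher by 0.84 (limma adjusted p = 0.00665). Sufu, which binds and holds Gli proteins, and Kif7, a kinesin of the cilium tip, both limit Gli activity. *Sufu* was higher by 0.47 (limma adjusted p = 0.0192), a call that was lost in each run without 1 array (adjusted p of up to 0.0958). *Tulp3*, which carries receptors into the cilium, was higher by 0.37, and *Kif7* by 0.55 at its brighter probe set, whereas its other probe set had a difference of -0.17 and did not pass. The calls of *Kif7* and *Tulp3* were lost without either mutant array (adjusted p of up to 0.0651 and 0.189), and that of *Tulp3* also without wild-type replicate 2 (adjusted p = 0.123). The 7 lower genes had differences from -1.28 to -0.42. Lower in mutants was *Rab23*, a small GTPase known as an inhibitor of the pathway in mouse embryos, at 7.39 and 7.46 in mutants and at 8.56 and 8.85 in wild type. It fell by 1.28 (SE 0.12, limma adjusted p = 0.0039). The ubiquitin ligase scaffold *Cul3* and its adaptor *Spop*, which direct Gli2 and Gli3 to breakdown, fell by 1.18 and 0.94 (limma adjusted p = 0.00272 and 0.0041). *Prkar1a*, a regulatory subunit of protein kinase A, fell by 0.44, a call that was lost without either mutant array (adjusted p = 0.0833 and 0.0954) and without wild-type replicate 3 (adjusted p = 0.0532). The transport genes *Ift88* and *Dync2h1*, needed to build and service the cilium, fell by 0.45 and 0.42 (limma adjusted p = 0.0471 and 0.0397). The call of *Dync2h1* was lost in each run without 1 array (adjusted p of up to 0.174). That of *Ift88* passed among these runs only without *Meis2* mutant replicate 1 (adjusted p = 0.0448), and was lost with array weights (adjusted p = 0.055) and after quantile normalization was repeated (adjusted p = 0.0764). Members known as inhibitors of the pathway thus lay on both sides.

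**Figure D4:**
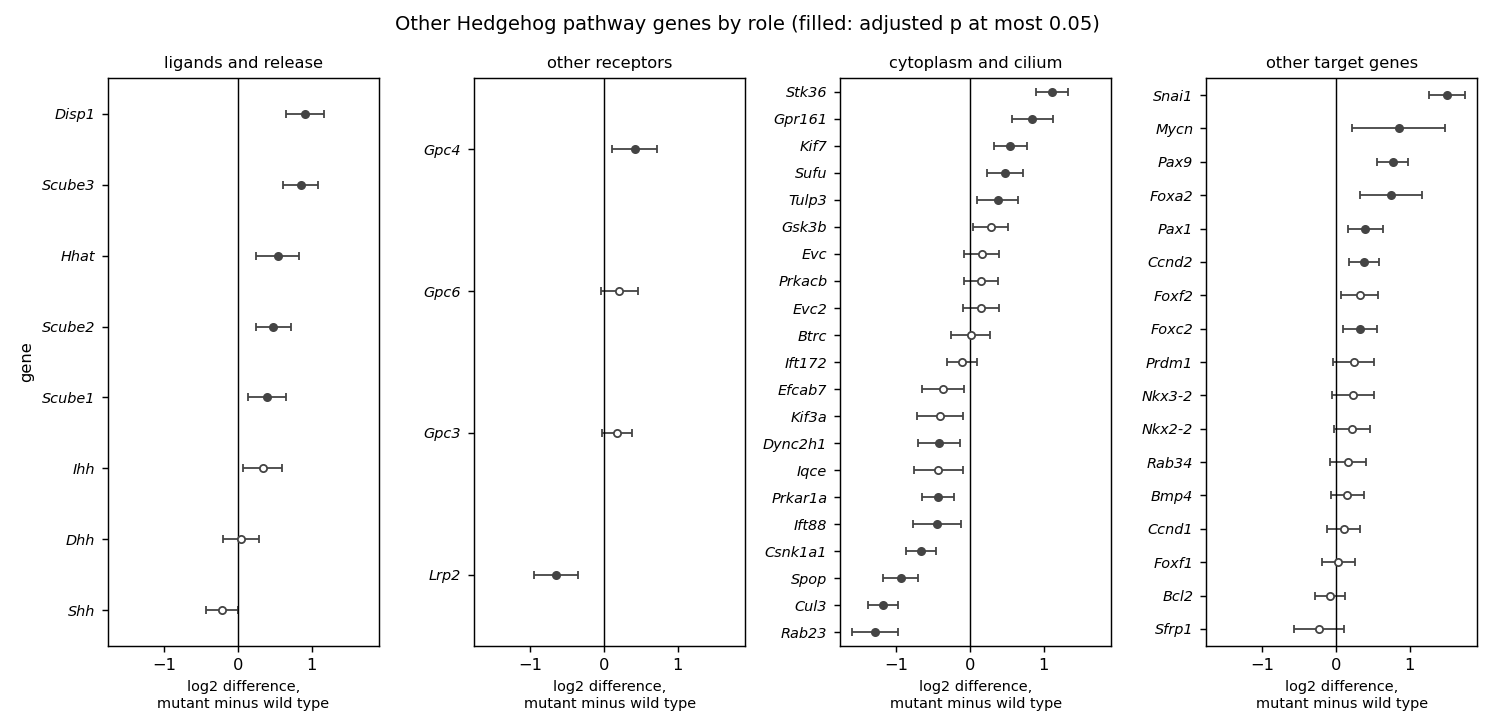
Difference in log2 signal, *Meis2* mutant minus wild type (x axis), with 95% confidence intervals for the other measured genes of the pathway (y axis) in panels by role. Filled circles passed an adjusted p of 0.05. The called ligand release and target genes lie right of 0, and the cytoplasmic and ciliary genes spread from -1.28 (*Rab23*) to 1.11 (*Stk36*).

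Of 17 other genes described as Hedgehog targets in one tissue or another, 7 were higher in mutants, none was lower and 10 missed the threshold, with a median difference of 0.24. *Snai1*, a zinc finger repressor of epithelial genes, was at 10.58 and 10.62 in mutants and at 9.18 and 9.01 in wild type. The difference of 1.505 (SE 0.09, limma adjusted p = 0.00272) was larger than that of any of the 9 receptors and effectors. *Pax9* and *Pax1*, which are induced by Hedgehog signals in the sclerotome, were higher by 0.77 and 0.39 (limma adjusted p = 0.00469 and 0.0285). The forkhead gene *Foxa2*, a floor plate target, was higher by 0.75 (limma adjusted p = 0.0238). It was at 7.33 and 7.49 in mutants and at 6.45 and 6.87 in wild type, where the medians of all probe sets were 6.63 and 6.65. *Mycn*, at 9.04 and 8.96 in mutants and at 8.52 and 7.79 in wild type, was higher by 0.85 (limma adjusted p = 0.0499, and 0.0505 with a robust prior). Its wild-type arrays lay far apart, and the difference was 1.21 without wild-type replicate 2 and 0.49 without wild-type replicate 3. *Ccnd2*, a D-type cyclin, and *Foxc2* were higher by 0.38 and 0.32, whereas *Ccnd1* and *Bmp4* had differences of 0.11 and 0.15 that did not pass. The calls of *Ccnd2* and *Foxc2* were lost in each run without 1 array (adjusted p of up to 0.113 and 0.188). Median scaling left 4 of the 7 past the threshold, and without either mutant array 2 of the list passed, *Snai1* and *Pax9*. Without wild-type replicate 3 there were 4.

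Over these 4 lists, 18 of 50 measured genes were higher and 8 were lower, with a median difference of 0.19. As shares these stand beside 21.6 percent higher and 15.7 percent lower over all probe sets, and a median of 0.11. The number lower and the median are thus near those of all probe sets. When only single-symbol probe sets were tested, 21 of the 50 were higher and 11 lower, beside 6615 and 4467 of 21789.

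Markers of other cells that a whole cochlea can hold were counted on the same arrays. Over all probe sets 21.6 percent were higher and 15.7 percent lower, and the counts of some lists, such as the mesenchyme, were near these shares. When only single-symbol probe sets were tested, the share higher was larger, at 6615 of 21789, with 4467 lower. In that setting 44 of the 125 markers in all lists, sex-linked genes included, were higher and 23 lower. For cartilage, 6 of 18 genes passed as higher and none as lower, and the summed signal of the list on the log2 scale was 15.69 to 15.71 in mutants and 15.42 to 15.50 in wild type. *Chad*, a cartilage matrix protein, was higher by 1.84, while 12 of the 18 cartilage genes did not pass. For skeletal muscle, 10 of 12 passed as higher and none as lower (10.81 to 11.33 in mutants and 10.06 to 10.35 in wild type). Some of these genes were dim. In wild type *Myh3* was at 5.27 and 5.54 and *Tnnc2* at 6.04 and 6.19, below the medians of all probe sets, 6.63 and 6.65. Other genes of the list were brighter. The mesenchyme around the duct had 3 of 11 genes higher and 2 lower (14.44 to 14.63 in mutants and 14.22 to 14.34 in wild type). Neurons of the spiral ganglion, where Sonic hedgehog is made in the cochlea, had 7 of 13 genes lower and none higher (12.53 to 12.57 in mutants and 13.37 to 13.39 in wild type), and glia had 3 of 6 lower and 1 higher (12.43 to 12.49 in mutants and 13.18 to 13.35 in wild type). In the duct itself, non-sensory genes (4 of 8 higher, 1 lower) summed to 13.50 to 13.51 in mutants and 13.42 to 13.51 in wild type. Prosensory genes (2 of 10 higher, 3 lower) summed to 12.64 to 12.73 in mutants and 12.70 to 12.75 in wild type, and hair cell genes (5 of 11 higher, 1 lower) to 11.04 to 11.19 in mutants and 10.93 to 11.06 in wild type. Markers of the central nervous system had 3 of 8 genes higher and none lower (9.88 in mutants and 9.60 to 9.65 in wild type). For blood and vessels, 3 of 5 erythroid genes were higher and 1 lower (9.36 to 9.38 in mutants and 9.50 to 9.63 in wild type), 1 of 10 macrophage genes was higher and 1 lower (10.94 to 10.95 in mutants and 10.86 to 11.31 in wild type), and none of 9 endothelial genes passed (13.28 to 13.35 in mutants and 13.09 to 13.19 in wild type). The sums add linear signals, so the brightest genes of a list weigh most. The erythroid sum was lower although 3 of 5 genes were higher, the lower gene being *Alas2* (difference -0.88). *Fabp7*, the brightest glial gene, had a difference of -1.45. The part of these cells in the differences of the Hedgehog genes was not tested.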

How the data were processed

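RNA of whole E15 cochleas was hybridized to Mouse Gene ST arrays (Affymetrix), 1 array per sample. The deposited log2 values were computed by the authors with RMA, which corrects background, normalizes and summarizes probe sets. RMA and mm8 are named in the submitters' processing notes. Scanner files were not used here, so these steps could not be repeated. Quantile normalization over all arrays would give them 1 distribution, but the deposited values had SDs of 2.13 to 2.14 on mutant and 2.20 to 2.21 on wild-type arrays. The SDs and medians thus split by genotype. Any processing step that differed between the groups of arrays could therefore not be told apart from genotype. The methods state that RMA included normalization between arrays, and do not name the arrays it was run over. Median scaling and repeated quantile normalization were therefore among the alternatives. Arrays were grouped by the labelled genotype. All 35556 probe sets were fitted with limma 3.58.1 in R 4.3.3 (lmFit and eBayes, no covariate, no filter), with Benjamini-Hochberg adjustment and a threshold of 0.05. Each spread rests on 2 residual degrees of freedom and 2.91 from the prior, and the number of arrays limits the precision. Symbols came from the platform annotation, for 21789 probe sets with 1 symbol, of which 21698 were matched to current symbols by Entrez ID. Those with several (1621) or not named here (12146) name no gene. Where a gene had several probe sets, the brightest on average was used for counts.
The members and lists were chosen with earlier results of these data known. All 9 members are named with every probe set, and of the pathway lists any gene may be named. The markers named are among the 2 with the smallest p in a list, apart from *Oc90* and *Xist*, chosen after their values were seen. Promoter windows came from RefSeq tables. *Arl13b*, *Prkaca*, *Grk2* and *Pthlh* had no single-symbol probe set among the values used here. SAM, which the methods name, has few relabelings at this size, so limma was the main test. Alternatives were significance analysis of microarrays (SAM, written for this work after the methods, with 6 relabelings), other priors, scalings, filters, array weights, the mean of a gene's probe sets, a threshold of 0.1 and leaving out each array. When an array is left out, the other of its genotype is assumed to vary like the rest. Scripts were tested on simulated data (35556 probe sets, the same comparison), with 100 differences of 1 and 100 of 2 on the log2 scale and no others. In these, limma recovered 60 percent of the differences of 1 and 92 percent of those of 2. Far more probe sets were called in the deposited data, so the adjusted threshold was less strict there. These percentages therefore do not give the share of differences missed in the deposited data.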

Additional observations from a re-analysis of the deposited data

How the results depend on the processing

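No gene of the 9 was called lower under any alternative. The count of 6 higher was the same with a trended or robust prior, both scalings, leaving out dim probe sets (*Cdon* among them), testing single-symbol probe sets alone, array weights, the mean of a gene's probe sets and a threshold of 0.1. It was 8 with SAM, which added *Gas1* and *Smo* but also called 17779 probe sets higher and 9243 lower, and 3 to 6 without single arrays. Over these alternatives the median difference of the 9 genes was 0.59 to 0.75, and 0.61 to 0.75 without single arrays. *Cdon* turned to -0.0029 after median scaling, -0.037 after repeated quantile normalization and ran between -0.066 and 0.229 without single arrays. *Dhh* turned to -0.047 and -0.071 under the same scalings and ran between -0.034 and 0.109 without single arrays. Neither was called in any of them.
Of the other pathway genes, 32 were higher and 14 lower with SAM, and 6 to 13 were higher and 4 to 8 lower without single arrays. Of the cell type markers, 38 were higher and 22 lower, against 69 and 34 with SAM, 22 higher after median scaling, and 12 to 28 higher and 13 to 28 lower without single arrays. Over all probe sets 7695 were higher and 5573 lower, against 5062 higher after median scaling, which moved the share of calls that were lower to 56.0 percent (42 percent before), and 1998 to 5470 higher and 2613 to 5425 lower without single arrays. Leaving out an array also leaves 1 residual degree of freedom in place of 2. Other causes were not tested. No paired analysis was possible because the groups share only 1 replicate number.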
